A study of Capra hircus with 20 samples.

Results

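The comparison set the hypothalamus of Jining grey goats on day 180 after birth against that of newborn goats on day 1, with 5 libraries a side. They were chosen by the age in their labels and make up 10 of the 20 small RNA libraries of the series, which also holds 5 libraries each of day 60 and day 120. All animals were of the same breed and were kept under the same conditions with feed and water freely available. No treatment or altered genotype is named; the labels call the 5 libraries of a stage biological replicates and give neither sex nor batch. All 683 rows of the deposited miRNA table were compared. Of these, 414 reached 1 RPM (reads per 1000000 miRNA reads) in at least 5 of the 20 libraries and were tested, 357 of them known miRNAs and 57 numbered predictions.

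A miRNA is a short RNA that is cut as a duplex from a hairpin precursor. One strand of the duplex, from the 5p or the 3p arm, usually stays in the silencing complex and represses messenger RNAs that pair with its seed, while the other is mostly degraded. The hypothalamus holds the neurons that release gonadotropin-releasing hormone, and LIN28B, a protein that blocks let-7 maturation, is among the genes linked to the age at puberty in humans. In whole tissue, fewer cells of a type and less of a miRNA per cell cannot be told apart.

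The recovered depth of the 10 libraries ran from 4017937 to 8284437 miRNA reads, and 3 reads, taken as the floor of detection, stood for 0.362 to 0.747 RPM. One newborn library, replicate 2 of day 1, stood apart. It was the shallowest, and its levels ranked least like those of the others (median Spearman coefficient 0.873, the lowest of the 20). Numbered predictions took 4.28% of its reads, against 0.302% to 0.946% in the other 9 libraries, and it held the highest day-1 value of 200 of the 414 tested miRNAs (48.3%). Values without it are given beside the results that it moved most. Of the neural miRNAs miR-9-5p, miR-124a and miR-128-3p, the lowest of the 10 libraries held 86152, 290 and 4934 RPM. These miRNAs mark neural tissue in general, so their levels cannot check the brain region. The 2 tested miRNAs of the posterior HOX clusters summed to 92.0 to 343 RPM.

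Which miRNA levels differ between a newborn and a 180-day-old hypothalamus was asked with limma on log2(RPM + 1), fitted over all 20 libraries. A miRNA is called here when its p, adjusted over the 414 by Benjamini-Hochberg, was below 0.05. In all, 14 miRNAs were called (3.38% of those tested), 3 higher on day 180 (0.725%) and 11 lower (2.66%). The 3 risers were miR-101-3p, miR-3955-3p and let-7f-3p. Of the 11 that fell, 5 (miR-493-3p, miR-665, miR-496-3p and both arms of miR-412) come from the imprinted DLK1-DIO3 region, and the others were miR-363-3p, miR-449a-5p, miR-130b-3p, miR-542-5p and 2 predictions. Differences are given as log2 differences, day 180 minus day 1, which understate changes of miRNAs near 1 RPM. Their median over all tested miRNAs was -0.25, and -0.04 without replicate 2 of day 1. By sign alone, 37.4% of all tested miRNAs lay higher and 62.6% lower on day 180, and 51.8% did without that library. At an unadjusted p below 0.05 there were 86 miRNAs (20.8%), 24 higher (5.8%) and 62 lower. Replicate 2 of day 1 held the highest day-1 value of 45 of these 62 (72.6%), against 48.3% of all tested miRNAs. Of the 11 called lower, it held the highest day-1 value of 6 (54.5%). How many of the 62 rest on that library was not tested. The calls of miR-101-3p, miR-363-3p, miR-449a-5p, miR-493-3p and the prediction novel_1425 held in all 20 fits that left out 1 library and in each of the 12 other settings that tested them. All other calls were lost when limma was fitted to the libraries of day 1 and day 180 only. Their adjusted p in that fit ran from 0.106 (miR-496-3p) to 0.175 (miR-412-5p), with miR-412-3p at 0.143. Of the 20 fits that left out 1 library, miR-412-3p was called in 18, and miR-3955-3p, miR-130b-3p and miR-542-5p in 13 each. The prediction novel_125 was called in 12, miR-496-3p in 11, miR-412-5p in 10, let-7f-3p in 7 and miR-665 in 4.

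**Figure D1:**
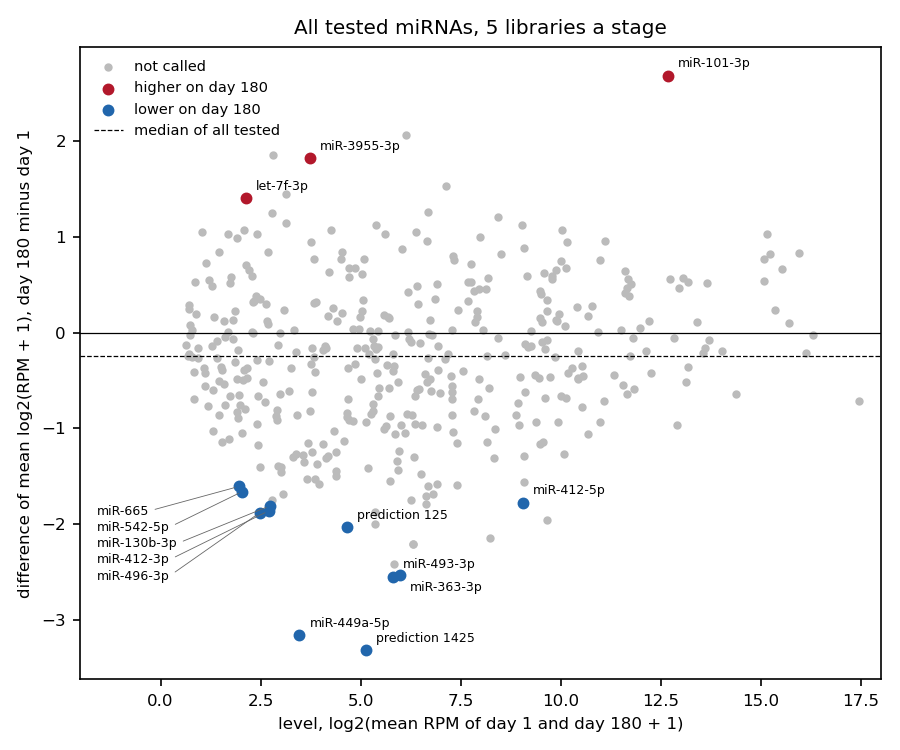
Each point is 1 of the 414 tested miRNAs; the x axis is its level in the 2 stages and the y axis the difference of the stage means of log2(RPM + 1), day 180 minus day 1 (n = 5 a stage). The 3 miRNAs called higher (red) and the 11 called lower (blue) are named; miR-101-3p is the only called one above a log2 level of 10, and the dashed median lies at -0.25.

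The count of calls depended on single libraries and on the fit. Leaving out replicate 1, 2, 3 or 5 of day 1 gave 7, 6 (1.46%), 7 or 31 calls. Leaving out replicate 1, 3, 4 or 5 of day 180 gave 5, 9, 8 or 5, and leaving out replicate 5 of day 120 gave 6. The higher miRNAs made up 21.4% of the calls. They made up 48.0% of the 25 calls with quantile scaling, 40.0% of the 5 with a filter at 10 RPM, and 8.33% of the 48 that edgeR made without TMM; median-of-ratios and quantile scaling moved the median of all differences to -0.02 and 0.01.

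miR-101-3p, a miRNA that represses the Polycomb enzyme EZH2 and whose early postnatal activity in the mouse brain limits network excitability, was the most abundant of the 14. In replicates 1 to 5 of day 1 it measured 1065, 1029, 3198, 2178 and 1117 RPM, and in those of day 180 it measured 5592, 11764, 7924, 7456 and 24156 RPM. Every 180-day library lay above every newborn one, and replicate 5 of day 180 held more than the other 4. The log2 difference was 2.68 (SE 0.46, limma adjusted p = 0.000552), and 2.54 without replicate 2 of day 1 (adjusted p = 0.00203). Its rank among all miRNAs by mean level moved from 53 to 15. Reads of the other arm, miR-101-5p, were at or below 0.561 RPM in each of the 10 libraries.

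miR-3955-3p measured 5.94, 1.74, 5.05, 5.97 and 4.71 RPM on day 1 and 12.5, 15.04, 11.5, 26.2 and 33.7 RPM on day 180, again without overlap (log2 difference 1.82, SE 0.47, limma adjusted p = 0.0395). The low newborn value came from replicate 2, and without it the difference was 1.58 with an adjusted p of 0.106. Its more abundant partner miR-3955-5p measured 136 ± 101 RPM on day 1 and 108 ± 41.5 on day 180 (SD, n = 5; log2 difference -0.14, adjusted p = 0.897, and 0.23 without that library). let-7f-3p, the minor strand of the let-7f duplex, measured 1.19, 1.74, 3.37, 0.975 and 0.241 RPM on day 1 and 4.45, 5.73, 7.61, 2.91 and 5.72 on day 180. The stages overlapped in 1 pair of libraries, replicate 3 of day 1 above replicate 4 of day 180 (log2 difference 1.40, SE 0.39, adjusted p = 0.0424, and 0.0585 without replicate 2 of day 1). Its guide strand let-7f-5p measured 50582 ± 27535 and 75714 ± 12796 RPM and was not called (log2 difference 0.83, adjusted p = 0.215). Replicate 2 of day 1 held 12760 RPM of it against 30478 to 76850 RPM in the other newborn libraries, and without that library the difference was 0.40 (adjusted p = 0.541).

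miR-363-3p carries the seed of miR-92a and miR-25 and belongs to a paralog of the miR-17-92 cluster, whose miRNAs promote proliferation. It measured 98.6, 139, 169, 45.7 and 85.1 RPM in the newborn libraries and 13.8, 19.3, 20.9, 13.7 and 14.4 RPM at 180 days. The lowest newborn value was above the highest at 180 days (log2 difference -2.53, SE 0.42, limma adjusted p = 0.000465). Relative to the mean, the spread was smaller at 180 days (SD 3.42 on a mean of 16.4 RPM, against 48.0 on 108 RPM). In the RefSeq gene table of the goat assembly ARS1.2 its gene lies next to those of miR-20b, miR-18b and miR-106a. miR-20b measured 31.2 ± 23.3 and 8.51 ± 3.25 RPM (SD, n = 5; log2 difference -1.44, adjusted p = 0.138) and miR-106a-5p 16.3 ± 7.30 and 8.42 ± 3.07 RPM (-0.82, adjusted p = 0.378); the arms of miR-18b were below the filter.

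miR-130b-3p, of the family of miR-130 and its relatives, measured 7.65, 19.2, 16.3, 2.80 and 2.66 RPM on day 1 and 0.430, 2.00, 3.72, 0.850 and 1.12 RPM on day 180. The stages overlapped through replicate 3 of day 180 (log2 difference -1.81, SE 0.47, limma adjusted p = 0.0395, and 0.117 without replicate 2 of day 1). The other arm, miR-130b-5p, was more abundant and did not overlap, at 74.6 to 248 RPM on day 1 and 20.9 to 71.1 on day 180, yet it missed the threshold (log2 difference -1.71, adjusted p = 0.0755). miR-542-5p, from an X-linked cluster with miR-424 and miR-450, measured 2.11, 8.71, 12.8, 1.34 and 2.78 RPM on day 1 and 0.287, 1.15, 0.885, 0 and 1.24 RPM on day 180. No pair of libraries overlapped, with the 180-day values at 0 to 1.24 RPM, close to the floor (log2 difference -1.66, SE 0.45, adjusted p = 0.0395, and 0.121 without replicate 2 of day 1). The guide miR-542-3p measured 251.6 ± 241 and 306 ± 176 RPM (SD, n = 5; log2 difference 0.46, adjusted p = 0.709; 0.10 without that library).

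miR-449a-5p is made by multiciliated cells, which in the brain line the ventricles, and shares its seed with the miR-34 family. It measured 8.45, 3.48, 31.6, 44.5 and 9.54 RPM in the newborn libraries and 0.143, 1.29, 0.885, 0.243 and 0.870 RPM at 180 days, where 2 of 5 values lay under the floor. The stages did not overlap (log2 difference -3.16, SE 0.59, limma adjusted p = 0.00145; -3.59 without replicate 2 of day 1). Its neighbours miR-449b-5p and miR-449c were below the filter and listed at 0 in all 5 libraries of day 180. miR-34c-5p measured 292, 755, 1007, 4185 and 101 RPM on day 1 and 32.8, 284, 101, 1280 and 83.4 on day 180, so that libraries of 1 stage differed by more than the stage means (log2 difference -1.96, SE 0.93, adjusted p = 0.215). miR-34b-3p measured 268 ± 330 and 184 ± 287 RPM (log2 difference -0.81, adjusted p = 0.688; -0.50 without replicate 2 of day 1). The choroid plexus miRNA miR-204-5p measured 3105 ± 2158 and 3566 ± 851 RPM (log2 difference 0.38, adjusted p = 0.69; 0.72 without that library) and its paralog miR-211 32.3 ± 17.6 and 16.1 ± 4.78 RPM (-0.83, adjusted p = 0.348). The summed level of the multiciliated and choroid plexus list ran from 2831 to 8525 RPM on day 1 and from 2869 to 6488 on day 180, most of it miR-204-5p. The part of ventricle-lining tissue in the change of miR-449a-5p was not tested.

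The DLK1-DIO3 region is an imprinted locus whose miRNA genes are expressed from the maternal chromosome, largely in neurons and during development. miR-493-3p, at its start, measured 56.1, 185, 114, 75.5 and 39.8 RPM on day 1 and 8.46, 17.04, 4.78, 28.0 and 18.4 RPM on day 180, without overlap (log2 difference -2.55, SE 0.52, limma adjusted p = 0.00355; 0.0135 without replicate 2 of day 1). Its other arm, miR-493-5p, measured 124 ± 92.4 and 67.9 ± 38.7 RPM (SD, n = 5; -0.43, adjusted p = 0.743; -0.74 without that library). The next gene, miR-665, measured 4.36, 15.4, 4.35, 0.975 and 1.21 RPM on day 1 and 0.143, 0.286, 1.06, 0.728 and 0.497 on day 180; its call (-1.61, SE 0.46, adjusted p = 0.0498) was the closest to the threshold and held in 4 of the 20 fits that left out 1 library. In replicate 2 of day 1, which held its highest value, miR-665 was more than 3 times as high as in any other library. Without that library its log2 difference was -1.15 (limma adjusted p = 0.165).

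Towards the far end of the region, both arms of miR-412 fell. miR-412-5p measured 905, 1693, 573, 795 and 211 RPM on day 1 and 131, 215, 99.98, 402 and 273 RPM on day 180, overlapping through replicate 5 of day 1 (log2 difference -1.77, SE 0.48, limma adjusted p = 0.0395, and 0.13 without replicate 2 of day 1). miR-412-3p measured 6.33, 31.9, 4.49, 4.14 and 2.66 RPM and then 1.00, 0.716, 2.12, 1.09 and 0.746 RPM, with no overlap (-1.86, SE 0.45, adjusted p = 0.0223, and 0.0345 without that library). The genes on either side of miR-412 gave smaller differences: miR-409-3p measured 4103 ± 4693 and 1882 ± 1150 RPM (SD, n = 5; -0.55, adjusted p = 0.617; 0.02 without that library), and miR-369-3p 113 ± 56.3 and 86.7 ± 44.7 RPM (-0.52, adjusted p = 0.705). miR-496-3p measured 5.81, 13.2, 14.6, 4.63 and 1.93 RPM on day 1 and 0.143, 2.15, 1.06, 1.21 and 1.24 RPM on day 180, with replicate 5 of day 1 within the later range (-1.88, SE 0.51, adjusted p = 0.0395, and 0.121 without replicate 2 of day 1).

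Across the run from miR-493 to miR-656, 61 products of 43 hairpins were tested. Of these 5 were called lower (2.66% over all tested miRNAs) and 1, miR-3955-3p, higher (0.725% over all). In sign, 45 lay below 0, where 62.6% of all tested miRNAs did, and the median log2 difference was -0.59 against -0.25 over all. Without replicate 2 of day 1, 39 lay below 0 (51.8% over all) and the median was -0.27 against -0.04. The group from miR-493 to miR-136 had a median of -0.81 over 10 products and that from miR-379 to miR-656 one of -0.55 over 49; without that library the medians were -0.69 and -0.25. In the annotation, the gene of miR-3955 lies between these groups. Members above 0 included the abundant miR-127-3p, at 6882 ± 3209 and 9141 ± 3638 RPM (SD, n = 5; log2 difference 0.46, adjusted p = 0.514), and miR-656, the last gene, at 11.02 ± 6.26 and 25.1 ± 13.1 RPM (1.08, adjusted p = 0.31, and 0.0298 with DESeq2).

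**Figure D2:**
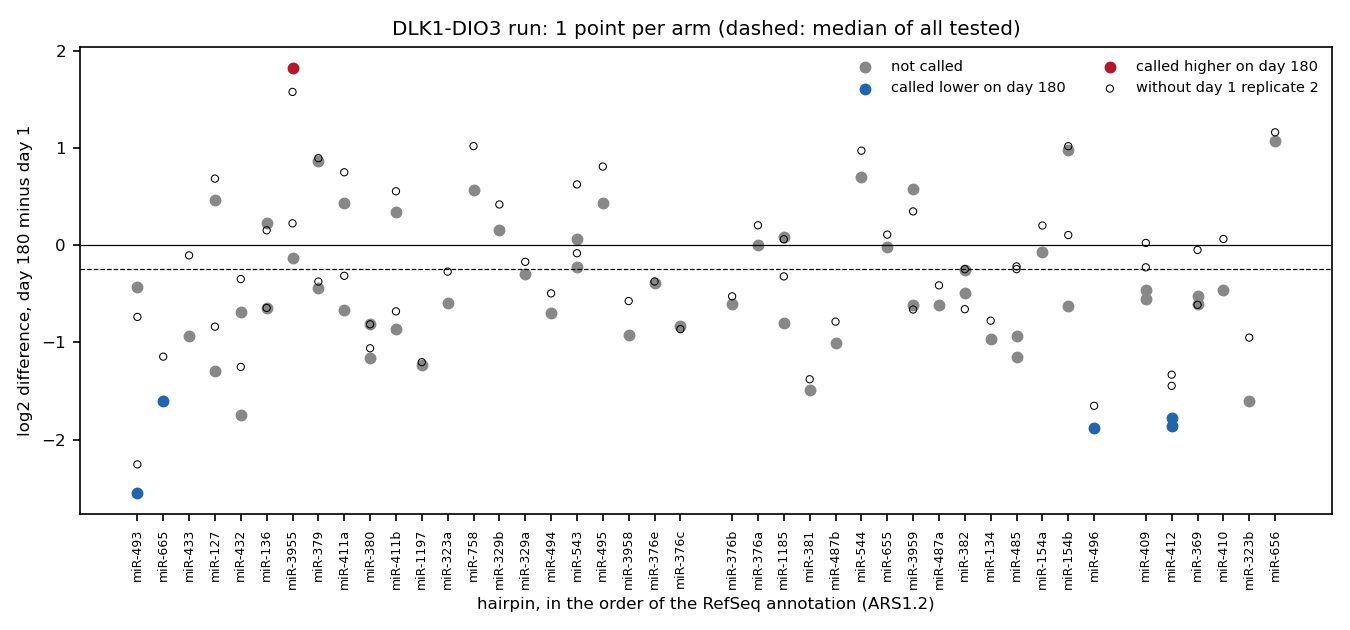
Log2 difference, day 180 minus day 1, of each tested arm of the DLK1-DIO3 hairpins, in the order of the RefSeq annotation; open circles leave out replicate 2 of day 1. The 5 called lower (blue) lie at both ends of the run, miR-3955-3p (red) stands alone above 1.5, and 51 of the 61 open circles lie above their filled ones.

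Of the 57 tested predictions 2 were called, both lower (3.51%), against 3.38% of all tested miRNAs. novel_1425 measured 113, 65.2, 25.1, 71.2 and 38.9 RPM on day 1 and 1.72, 11.03, 6.19, 2.06 and 6.96 RPM on day 180, and the stages did not overlap (log2 difference -3.32, SE 0.47, limma adjusted p = 6.81e-05, the smallest of all; 0.000204 without replicate 2 of day 1). novel_125 measured 48.4, 64.0, 43.1, 20.7 and 17.02 RPM and then 6.02, 4.87, 26.7, 3.76 and 7.95 RPM, overlapping through replicate 3 of day 180 (-2.03, SE 0.54, adjusted p = 0.0395, and 0.117 without replicate 2 of day 1). The table gives no sequence or gene for either.

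The levels of the 14 on day 60 and day 120 are given as a description, since the 14 were chosen for their difference between day 1 and day 180. miR-101-3p measured 4720 ± 2879 RPM on day 60 and 9702 ± 3710 on day 120 (SD, n = 5), between its newborn and 180-day means. miR-412-5p also lay between them, at 509 ± 121 and 260 ± 94.8 RPM. miR-363-3p stood at 29.7 ± 9.73 and 27.5 ± 2.12 RPM, novel_1425 at 9.003 ± 1.70 and 7.26 ± 1.46, miR-493-3p at 19.2 ± 5.16 and 21.05 ± 10.8, all closer to day 180 than to day 1. miR-449a-5p stood at 1.37 ± 0.794 and 2.72 ± 4.59 RPM. novel_125 was lowest on day 60, at 3.15 ± 2.32 RPM, and miR-3955-3p highest on day 120, at 24.3 ± 7.77 RPM, against 19.8 ± 9.73 on day 180.

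**Figure D3:**
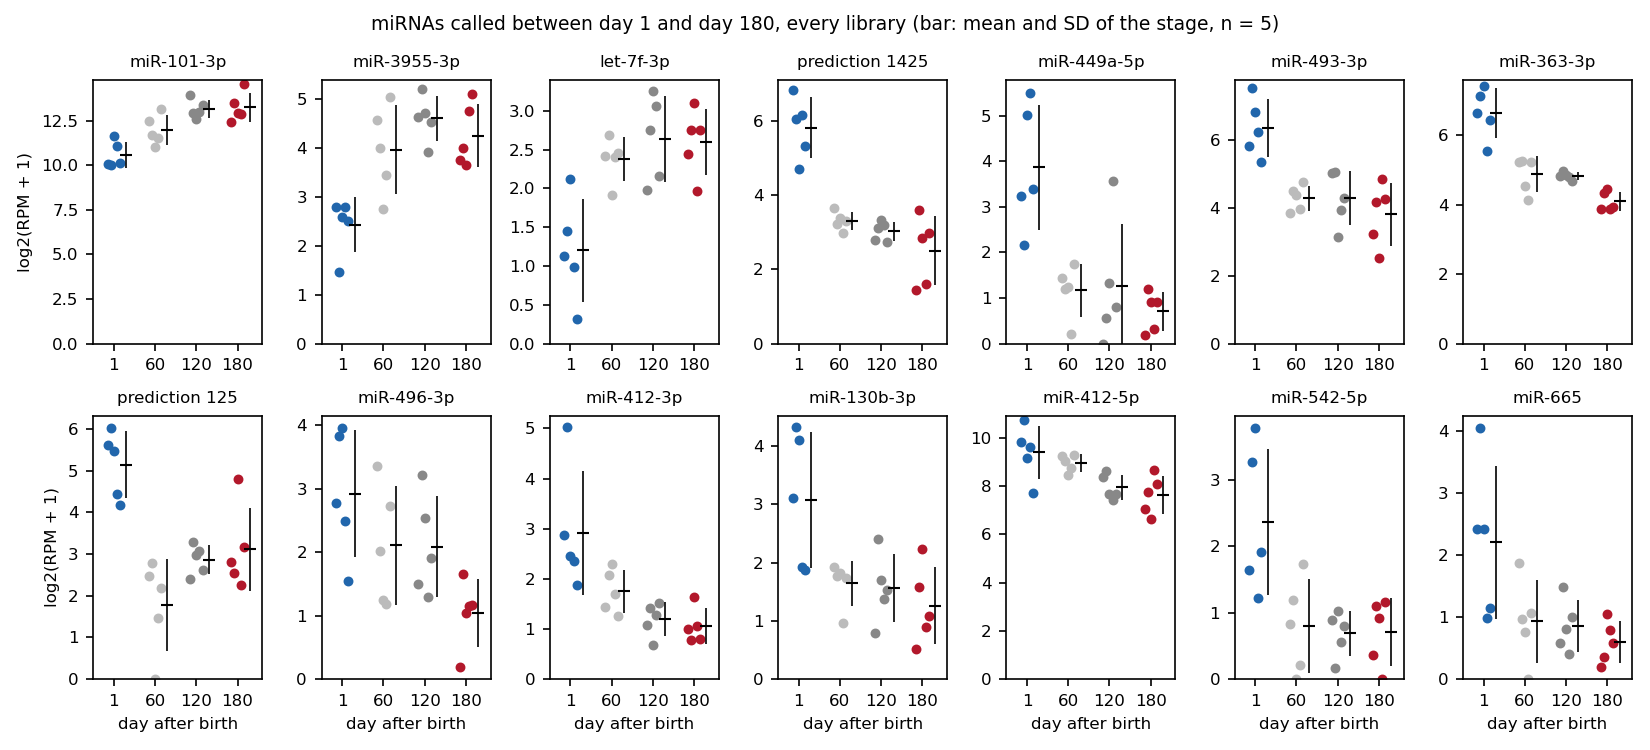
Level, as log2(RPM + 1), of the 14 called miRNAs in every library of the 4 stages; points are libraries, in the order of their replicate numbers, and bars the stage mean and SD (n = 5). In 8 of the 14 panels all red points (day 180) lie on one side of all blue points (day 1); panels headed as predictions show novel_1425 and novel_125.

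Separation of the 5 newborn from the 5 older libraries was as rare as a call: 15 of the 414 tested miRNAs did not overlap (3.62%), 3 of them higher (0.725%) and 12 lower (2.9%) on day 180. Of the 15, 8 were called. The other 7 were miR-130b-5p, miR-301a-5p, miR-502b-3p, miR-381, miR-193b-5p and the prediction novel_1172, all lower, and miR-98-3p, higher. miR-301a-5p, the 5p arm of a hairpin listed with miR-130b, ran from 10.3 to 23.1 RPM on day 1 and from 3.36 to 7.43 on day 180 (log2 difference -1.35, limma adjusted p = 0.0678). The 3p arm, miR-301a-3p, did not fall (0.19, adjusted p = 0.834). miR-381, another DLK1-DIO3 member, ran from 17.2 to 49.9 and from 3.01 to 16.8 RPM (-1.49, adjusted p = 0.0891). miR-98-3p, of the let-7 family, ran from 0 to 0.845 and from 1.00 to 2.43 RPM, at the floor in the newborns (1.06, adjusted p = 0.0932).

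Several known miRNAs at 10 RPM or more had differences as large as those of called ones, with libraries too spread to pass. Among the 10 known miRNAs with the most negative differences, miR-324-5p measured 24.5, 333, 126, 13.04 and 18.3 RPM on day 1 and 2.01 to 13.6 on day 180 (log2 difference -2.41, SE 0.71, limma adjusted p = 0.0647). miR-193b-3p, known from brown fat, measured 15.2, 561, 137, 14.3 and 8.21 RPM and then 3.01 to 15.6 RPM (-2.21, SE 0.81, adjusted p = 0.122), and miR-193a gave nearly the same value in each library, so that the table may count the same reads for both. miR-326-3p measured 19.1, 259, 53.4, 14.3 and 10.98 RPM and then 3.30 to 13.05 RPM (-1.87, adjusted p = 0.0967). In all 4, replicate 2 of day 1 was the highest of the 10 libraries and replicate 3 of day 1 the next; without replicate 2 the differences were -1.72, -1.30, -1.30 and -1.15. DESeq2 on the recovered reads called all 4, with adjusted p from 0.000124 to 0.00121, as did both edgeR fits, with adjusted p from 0.0109 to 0.018. The others of the 10 were miR-34c-3p, at 66.8 ± 88.4 and 13.04 ± 19.4 RPM (-2.002, and -1.28 without replicate 2 of day 1), and those described above.

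Among the 10 known miRNAs with the most positive differences, miR-122, the main miRNA of liver, measured 91.6, 24.1, 17.5, 17.9 and 2.66 RPM on day 1 and 142, 131, 135, 123 and 10.9 on day 180. In all, 4 of the 180-day libraries lay above all newborn ones and replicate 5 lay below 4 of them (log2 difference 2.06, SE 0.81, limma adjusted p = 0.147; DESeq2 called it, at 0.0403). miR-374a-5p measured 34.2 to 198 RPM with a median of 62.2 on day 1 and 94.8 to 281 with a median of 212 on day 180 (1.53, adjusted p = 0.118), and it was called after median-of-ratios (0.0387) or quantile scaling (0.0304) and by DESeq2 (0.0391). miR-361-5p measured 330 ± 162 and 716 ± 353 RPM (SD, n = 5; 1.12, adjusted p = 0.184), and both scalings, edgeR with TMM and DESeq2 called it, with adjusted p from 0.00277 to 0.0371. miR-335-5p, from an intron of the imprinted gene MEST, measured 53.4 ± 24.1 and 149 ± 92.5 RPM (1.26, adjusted p = 0.259), and DESeq2 called it (0.0173). miR-338-3p, an oligodendrocyte miRNA, measured 141, 110, 690, 42.3 and 215 RPM and then 305, 587, 668, 94.0 and 590 RPM (1.21, adjusted p = 0.31). Of the 2 stages compared, miR-202-5p and miR-215-5p reached a mean of 10 RPM only on day 180. Their log2 differences were 1.45 and 1.15, with adjusted p of 0.215 and 0.31. Replicate 2 of day 180 held 37.7 and 33.7 RPM of them, against 180-day medians of 4.95 and 7.61 RPM.

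The sets of the most abundant miRNAs overlapped: 9 of the 10 with the highest mean on day 1 were among the 10 highest on day 180, and the top 10 of each stage held 63.8% and 66.7% of all reads. miR-9-5p, a miRNA of neural progenitors and neurons, was first in both. It measured 273587, 119879, 318675, 234326 and 177817 RPM on day 1 and 86152, 188588, 89787, 142132 and 179204 RPM on day 180, and the ranges overlapped (log2 difference -0.71, SE 0.37, limma adjusted p = 0.288). On the linear scale this difference of means, -87684 RPM, was the largest. miR-7-5p, abundant in neuroendocrine cells, had the largest gain on that scale, 31524 RPM, through 1 library: the 180-day values were 21704, 42642, 9515, 304600 and 105125 RPM, and its log2 difference was -0.03 (adjusted p = 0.994), turning positive with median-of-ratios scaling (0.21) and with the 3 count fits. miR-143-3p, a smooth muscle miRNA, was highest in replicate 5 of day 1, at 209176 RPM, and in replicate 1 of day 180, at 172472 RPM, against 24197 to 95342 RPM in the other 8 libraries.

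On the same scale the next largest gains were those of let-7f-5p, miR-26a-5p, let-7a-5p and let-7g-5p. miR-26a-5p measured 28190, 43679, 39294, 31081 and 41935 RPM on day 1 and 42531, 56822, 65922, 53072 and 74954 on day 180. Only replicate 1 of day 180 fell within the newborn range (log2 difference 0.67, SE 0.31, limma adjusted p = 0.215). let-7g-5p measured 44924, 11594, 20401, 30848 and 39585 RPM and then 40522, 56274, 65660, 36648 and 40233 RPM (0.82, adjusted p = 0.193; 0.52 without replicate 2 of day 1). The 5p strands of let-7 and miR-98 together took 20.9%, 7.51%, 10.2%, 18.5% and 21.1% of the newborn reads and 26.5%, 23.8%, 33.8%, 16.8% and 18.9% at 180 days. The means were 15.6% ± 6.35 and 24.0% ± 6.71 (SD, n = 5; two-sided exact permutation p = 0.0873, adjusted over 3 such measures p = 0.262; 5 against 5 allows no p below 0.00794). The number of miRNAs at 1 RPM or more was 397 ± 23.9 and 387 ± 15.1 (exact permutation p = 0.484), and the effective number, the exponential of the Shannon entropy, was 29.1 ± 12.4 and 28.9 ± 6.25 (exact permutation p = 1). The 5 newborn libraries scattered more as a set: the median SD of a tested miRNA within its stage was 0.941 log2 units on day 1 and 0.668 on day 180, and 290 of 414 miRNAs had the larger SD on day 1. These values include replicate 2 of day 1, which held the highest day-1 value of 200 of the 414. How far that library made the newborn SD larger was not tested.

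Among miRNAs of families and cell types, read against the 0.725% of miRNAs called higher and 2.66% called lower and the median of -0.25 over all, few members were called. The let-7 family, known to build up with differentiation, had 14 of 17 members above 0, 1 called higher (let-7f-3p) and a median of 0.56; without replicate 2 of day 1 the count was again 14 and the median 0.58. Its 5p arms had a median of 0.56 and its 3p arms one of 0.74. Oligodendrocyte and myelin miRNAs (3 of 4 above 0, median 0.86), the miR-29 family (4 of 5, 0.68), which represses collagens, and liver miRNAs (3 of 3, 0.56) had no member called by limma, and 1 (liver) at an unadjusted p below 0.05. The miR-30 family had 6 of 11 above 0 with a median of 0.21 (0.45 without that library), and the miRNAs tied to puberty and GnRH 9 of 17 with a median of 0.03 (0.25 without it); limma called none of either list, and at an unadjusted p below 0.05 they held 2 members each, 1 of those of miR-30 lower. The astrocyte list, which shares miR-143 with the vessel list, had 9 of 18 members above 0 (median 0.08, and 0.17 without that library). Muscle miRNAs lay above 0 in 3 of 6 cases (0.05, and -0.09 without that library). The miR-16 family did in 4 of 8 (-0.02, -0.11 without that library, and above 0 after both scalings and in the 3 count fits). The family of miR-99 and miR-125 had 7 of 10 below 0 and a median of -0.14, which became 0.19 without replicate 2 of day 1.

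Below the overall median lay the miR-183 cluster of sensory cells (3 of 3 below 0, median -1.03, and -0.59 without replicate 2 of day 1), the miR-181 family (4 of 5, -0.76), the X-linked miR-424 cluster (4 of 6, -0.70, miR-542-5p called), the family of miR-130 (6 of 8, -0.65, miR-130b-3p called) and the miR-200 family of epithelium (4 of 4, -0.64). Multiciliated and choroid plexus miRNAs had 6 of 7 below 0 and a median of -0.84, with miR-449a-5p called. Without that library the miR-200 median went to 0.00, with 2 of 4 below 0, and the miR-181 median to -0.20; the summed miR-200 level ran from 19.0 to 1430 RPM on day 1 and from 92.3 to 178 on day 180. Neuron miRNAs (9 of 12 below 0, median -0.24) and microglia (6 of 9, -0.30) lay near the median of all. So did the miR-17-92 list (12 of 18, -0.25, miR-363-3p called). Neural stem and progenitor miRNAs (10 of 16, -0.25, miR-130b-3p called) also did, and vessels (8 of 10, -0.42) lay somewhat lower. At an unadjusted limma p below 0.05, vessels held 3 members, the miR-17-92 and progenitor lists 2 each, neurons 1 and microglia 0, all lower. Without replicate 2 of day 1 the median of all was -0.04. The miR-17-92 and progenitor medians then became -0.05 and -0.03, while those of neurons (-0.27), microglia (-0.27) and vessels (-0.51) lay below it. With quantile scaling the miR-17-92 and progenitor medians were 0.09 and 0.13. Erythroid miRNAs had 3 of 3 below 0 (median -0.69), and their summed level ran from 90.5 to 1552 RPM on day 1 and from 182 to 349 on day 180. The summed muscle level ran from 336 to 2668 RPM and from 457 to 3665, and the liver sum from 550.0 to 1709 and from 908 to 1494. The part of blood, vessel, muscle or liver RNA in the differences was not tested.

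**Figure D4:**
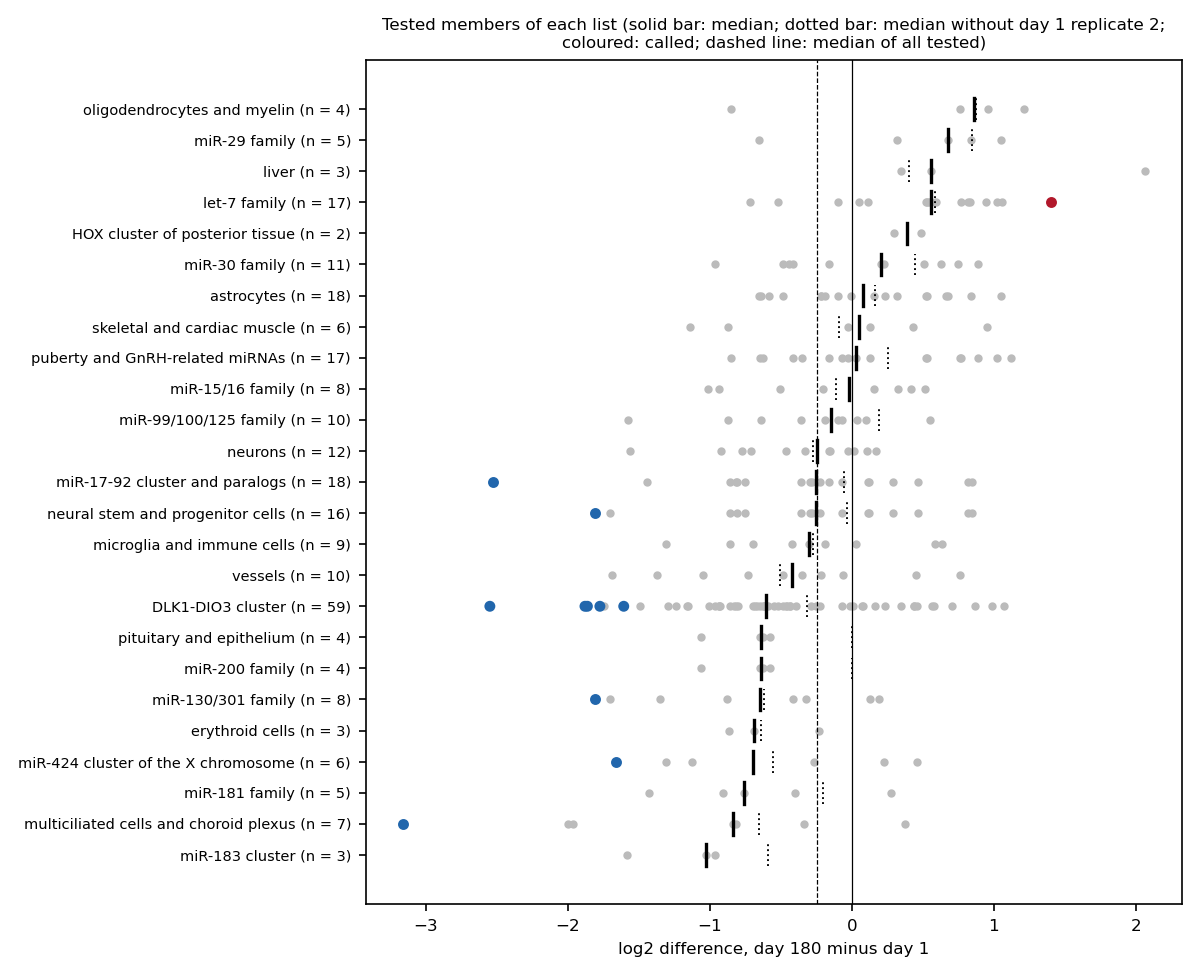
Log2 difference, day 180 minus day 1, of every tested member of each list (points), with the list median (solid bar), the median without replicate 2 of day 1 (dotted bar) and the median of all tested miRNAs (dashed line, -0.25). The coloured points are called members: 1 in the let-7 family and 5 in the DLK1-DIO3 cluster, while the other lists hold 1 or 0.

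The balance between the arms of a hairpin was compared next, as log2(RPM + 1) of the 5p minus that of the 3p product. Scaling of a library shifts this measure little where both arms lie well above 1 RPM, and more where 1 arm is near it. Of 120 hairpins with both arms tested, 8 (6.67%) were called by limma with Benjamini-Hochberg adjustment, 3 towards the 5p (2.50%) and 5 towards the 3p product (4.17%). Over all 120, 59 lay above and 61 below 0, with a median of -0.02. miR-340, which is encoded in an intron of RNF130, moved towards 5p: the balance was 2.09, 1.94, 1.98, 2.25 and 2.19 on day 1 and 2.77, 3.56, 3.11, 3.34 and 4.16 on day 180, with no overlap and a newborn SD of 0.135 (difference 1.30, SE 0.37, adjusted p = 0.0271). miR-340-5p measured 682 ± 275 and 1411 ± 504 RPM (SD, n = 5) and miR-340-3p 160.0 ± 70.4 and 130.3 ± 29.9 RPM, and neither arm was called alone (adjusted p = 0.148 and 0.785). miR-532 also moved towards 5p (1.90, SE 0.54, adjusted p = 0.0271), with the 5p product at 2645 ± 864 and 3903 ± 1263 RPM and the 3p product at 91.1 ± 117 and 28.0 ± 24.2 RPM; the stages overlapped and without replicate 2 of day 1 the adjusted p was 0.0814.

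miR-3955 moved towards 3p, with a balance of 4.26, 6.81, 3.74, 4.06 and 3.08 on day 1 and 2.52, 2.80, 2.34, 2.63 and 1.86 on day 180. The stages did not overlap (difference -1.96, SE 0.50, limma adjusted p = 0.0182), and the call held in 20 of 20 fits without 1 library. miR-877, a miRNA made from a spliced intron without Drosha, moved towards 3p (difference -1.38, SE 0.39, adjusted p = 0.0271). Its 5p product measured 47.8, 468, 60.4, 58.4 and 22.5 RPM on day 1 and 13.1 to 27.4 RPM on day 180, so that the newborn mean of 131 rests on replicate 2, and its 3p product measured 0.483 to 19.9 RPM and 1.21 to 2.72 RPM. Without that library the balance differed by -1.34 (adjusted p = 0.0367). As in miR-877, 1 arm lay close to the floor in at least 1 stage in the other 4 hairpins. For miR-363 (2.37 towards 5p, SE 0.44, adjusted p = 0.0015) the 5p product stood at 0.982 and 0.877 RPM, so the difference is that of miR-363-3p. For miR-98 (-1.77, adjusted p = 0.0136) the 3p product stood at 0.349 and 1.79 RPM, for miR-542 (-2.12, adjusted p = 0.0136) the 5p product at 5.54 and 0.712 RPM, and for miR-301a (-1.54, adjusted p = 0.0194) the 3p product at 0.753 and 0.976 RPM. With a pseudocount of 0.1 in place of 1, 3 hairpins were called (miR-3955, miR-542 and miR-98), and the other 5 of the 8 were not. The count was 5 without replicate 2 of day 180, 13 without replicate 1 of day 1, and 1 (miR-363) when the fit held only the 10 libraries of the 2 stages.

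**Figure D5:**
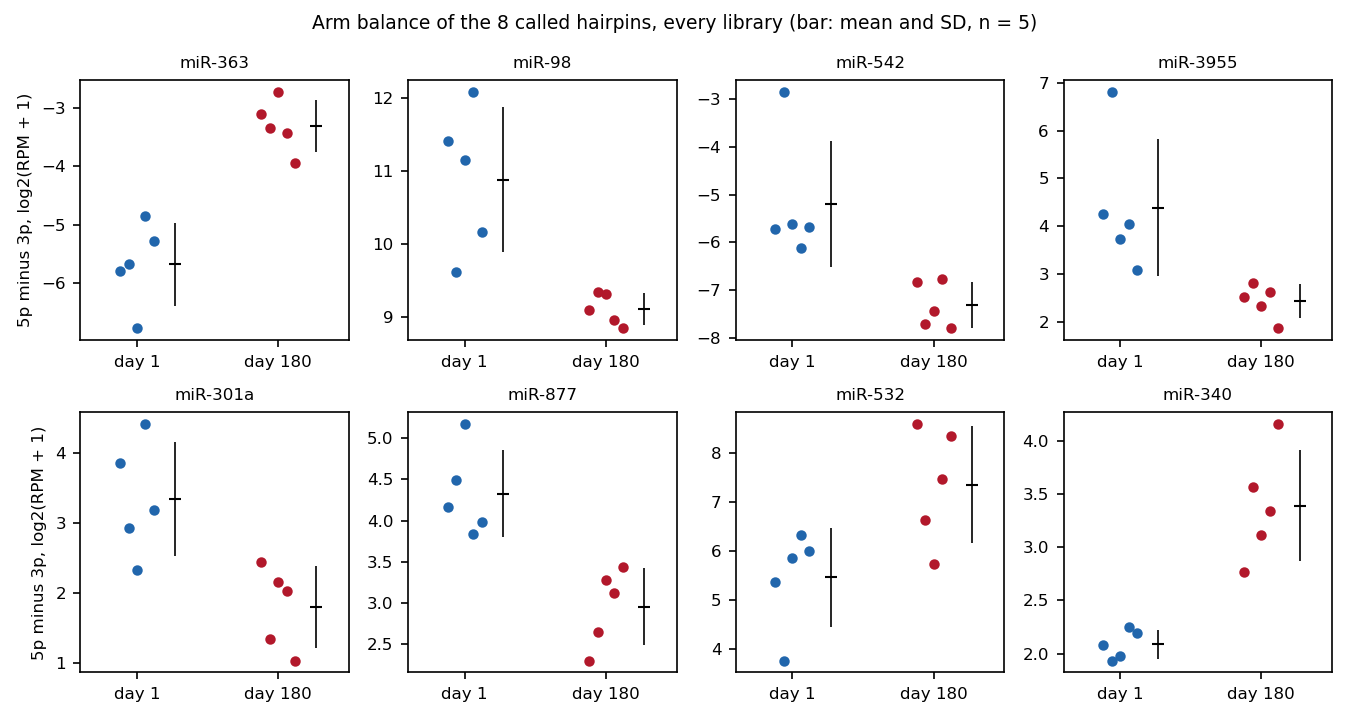
Balance of the arms (5p minus 3p, each as log2(RPM + 1)) of the 8 called hairpins in every library of day 1 (blue) and day 180 (red); bars give the stage mean and SD (n = 5). In 6 of the 8 panels the stages do not overlap; in miR-532 and miR-301a they do, and the highest newborn point of miR-3955 and miR-542 is replicate 2.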

How the data were processed

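Small RNA libraries were made from Trizol-extracted total RNA with an NEBNext kit, per the labels' protocols; the submitters' processing notes name Bowtie. The sources used here do not name the genome build, miRNA catalogue, counter or prediction tool. The authors deposited RPM values, headed TPM: each column summed to 1000000 within 16.2, and low values were whole multiples of 1 step. Dividing by it gave whole reads for 100% of values below 1000 reads (tolerance 0.1 read). miRNAs with nearly identical sequences can share reads. Within the stages, 20 library pairs had a chi-square per degree of freedom of 1868 or more, so no library was counted as a repeat; how many animals stand behind a library is not stated, so p-values measure the spread between these libraries.

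The test was limma 3.58.1 (R 4.3.3; eBayes with trend, two-sided) on log2(RPM + 1), 4 stage means, 16 residual degrees of freedom, and the median SE was 0.518. The same fit was used for the arm balance. Alternatives were 2 pseudocounts, 2 filters, 2 scalings, no trend, only the 2 stages, the replicate number as a block, leaving out each of 20 libraries, and edgeR 4.0.16 and DESeq2 1.42.0 on recovered reads (edgeR on 2 scalings). The functions were tested on simulated data. Floors of 3 reads cover counting error only. Totals of seed families were planned and are not analysed here, since no sequences were used. Named are all calls, the 10 known miRNAs with the most positive and the 10 with the most negative difference at 10 RPM or more, the 5 known ones with the largest gains and losses in RPM, the 10 most abundant, and list members and partner arms as examples; miRNAs whose stages do not overlap were added after their values were seen. Lists name hairpins, with both arms counted. The members, lists and tests were chosen with earlier results of these data known. Of 256 known hairpins 254 matched a RefSeq ARS1.2 gene symbol, used for gene order only.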

Additional observations from a re-analysis of the deposited data

Results flagged for a closer look

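In groups of 5, a library was singled out when its gap to the nearest other exceeded 0.71 of the group's range (Dixon's test at 95%). Of 108 groups looked at, 7 met this, and chance alone gives about 1 in 20. Of the 7, 5 were replicate 2 of day 1: its depth of 4017937 reads, its effective number of 51.2 miRNAs (21.9 to 25.4 in the other newborn libraries), miR-3955-3p at 1.74 RPM, miR-99a-5p at 46340 RPM, and the arm balance of miR-542 at -2.84. On day 180, replicate 5 held 10.9 RPM of miR-122 and replicate 1 held 172500 RPM of miR-143-3p.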

How the results depend on the processing

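The number of miRNAs called between day 1 and day 180, 14, ran from 5 to 31 over the fits that left out 1 library. It was 7 with a pseudocount of 0.1, 8 without a filter, 5 with a filter at 10 RPM, 5 when only the 2 stages were fitted, 23 with median-of-ratios and 25 with quantile scaling, 22 with edgeR and TMM, 48 with edgeR on library size alone and 61 with DESeq2. DESeq2 and both scalings kept all 14, and edgeR without and with TMM kept 13 and 11. With the replicate number as a block the count was 14, with 14 shared calls, and the arm count was 8. Same-numbered libraries of the 2 stages correlated at -0.162 to 0.267, and 1 of 5 matched its own number best. With 5 libraries a stage, these correlations cannot decide whether libraries of 1 number share a batch. The arm count, 8, ran from 5 to 13 without 1 library, and was 3 with a filter at 10 RPM, 3 with a pseudocount of 0.1, 5 with a pseudocount of 5, and 1 with only the 2 stages. Differences near 0 changed sign: miR-7-5p became 0.83 with DESeq2, 0.57 and 0.89 with edgeR without and with TMM, 0.21 with median-of-ratios scaling, and -0.687 to 0.5631 without single libraries. With median-of-ratios scaling miR-143-3p, miR-21-5p and miR-125b-5p became 0.02408, 0.02351 and 0.0506, and without single libraries they ran from -0.6733 to 0.2572, from -0.6047 to 0.4105 and from -0.4775 to 0.38. miR-100-5p became -0.24 with quantile scaling and ran from -0.03202 to 0.2868 without single libraries, and miR-27b-3p from -0.02603 (without replicate 2 of day 1) to 0.6262. The difference in the effective number, -0.20, became 0.0979 with known miRNAs only and ran from -2.418 to 5.306 without single libraries. The cause was not tested. Of the 14 calls, 6 had means below 10 RPM in both stages. In the stage where they were lower, their means ran from 0.543 to 1.62 RPM, and there depth limits the values to a small number of reads.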
